A study of Mus musculus and Homo sapiens with 8 samples.

Results

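The genes described here are 37 genes of DNA repair and of the Fanconi anemia pathway, taken by symbol from a list. That list was chosen with earlier results of these data known, so counts over it are no independent test of these pathways. Each of the 37 was found in the count tables of both experiments, among 20296 listed genes in human KU812 cells and 17097 in mouse LSK cells, and each passed the filter on low counts in both. They comprise 8 genes of the Fanconi core complex, the pair FANCI and FANCD2, 11 genes of homologous recombination, 3 of the damage checkpoint, 3 of the MRE11-RAD50-NBN complex, 2 of mismatch repair, 3 of base excision and single-strand break repair and 5 of end joining.

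Repair of DNA is divided among pathways by the kind of damage. The Fanconi core complex is a ubiquitin ligase that marks the FANCI-FANCD2 pair at crosslinked DNA and stalled forks, after which BRCA2, PALB2, BRIP1 and other proteins complete the repair by homologous recombination. End joining reseals double-strand breaks without a template, mismatch repair corrects replication errors, and base excision repair removes damaged bases. Inherited loss of Fanconi genes causes bone marrow failure, and hematopoietic stem cells are among the cells that depend on the pathway. Many genes of recombination and of the Fanconi pathway are known to be transcribed mainly around S phase.

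Gene expression was measured by RNA sequencing of 8 libraries. KU812, an established human line of chronic myelogenous leukemia with basophil features, carried a hairpin against ANP32B (shANP32B, n = 2) or a control hairpin (shNC, n = 2). In the mouse experiment bone marrow cells labelled LSK, the usual name for cells without lineage markers that carry Sca-1 and c-Kit, came from C57BL/6 animals that were Anp32b-KO (KO, n = 2) or wild type (WT, n = 2). The ANP32B protein is a chaperone of histones in the nucleus. The sources used here give neither the allele of the knockout, nor whether it is limited to some tissues, nor the age of the animals. They do not say whether replicates are separate animals or cultures, so a p-value covers only how these libraries vary, which may be technical variation. In bulk RNA fewer cells of a kind and less RNA per cell cannot be told apart.

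Library totals ran from 24416691 to 28209409 counts in KU812 cells and from 10549358 to 15683480 in LSK cells. The target ANP32B was read at 40.4 and 38.2 CPM (counts rescaled to a common library size after TMM scaling) in shANP32B libraries, against 250.2 and 286 CPM in shNC libraries, and Anp32b at 201 and 249 CPM in KO libraries, against 794 and 730.5 CPM in WT libraries. The drop in KO libraries was not past the threshold (log2 fold change -1.76, SE 0.17, edgeR adjusted p = 0.148). Which part of Anp32b is deleted is not stated, so reads from outside it may remain, and a count per gene is a limited check of the knockout. The WT libraries differed from each other more than the replicates of any other group did, with a chi-square of 47.7 per degree of freedom across genes, against 7.70 between the KO libraries, 9.74 between the shANP32B libraries and 19.6 between the shNC libraries. All 8 markers of the LSK gate, Kit and Ly6a among them, were detected in every LSK library, with a summed level of 2051 and 1945 CPM in KO and 2026 and 1801 CPM in WT. The 8 KU812 markers, with the histidine decarboxylase gene HDC and the mast cell carboxypeptidase gene CPA3 among them, summed to 4916 and 4865 CPM in shANP32B and 5740.3 and 5085 CPM in shNC. Single markers of that list differed between the groups. CPA3 stood at 1064 and 1151 CPM in shANP32B and 530.1 and 532 CPM in shNC (log2 fold change 1.06, SE 0.09, edgeR adjusted p = 9.8e-06), and PRG2, the gene of eosinophil major basic protein, at 544 and 631 CPM in shANP32B and 1740.3 and 1541 CPM in shNC (-1.48, SE 0.10, edgeR adjusted p = 1.57e-06). HDC overlapped between the groups, at 1218 and 1132 CPM in shANP32B and 1256 and 1092 CPM in shNC.

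The KU812 comparison asks which repair genes differ in a leukemia line with ANP32B knocked down. Of the 37 genes 18 fell and 1 rose by edgeR's quasi-likelihood test (adjusted p under 0.05, over all 16529 genes tested), and 18 did not pass. That is 48.6% lower, where 9.06% of all genes tested were called lower, and 1 gene higher, where 7.53% were. The median log2 fold change was -0.39 over the 37 genes and 0.0041 over all genes tested. The falls were moderate, with the 18 genes left at 56.0% to 76.3% of the shNC level, and they lay in the Fanconi pair, homologous recombination, the checkpoint, the MRE11 complex, mismatch repair and PRKDC, with 3 in the Fanconi core. The gene that rose was LIG4, the ligase of end joining. Levels in the shANP32B libraries lay below those of the shNC libraries without overlap in 27 of the 37 genes and above them in 1, where 28.9% and 29.5% of all genes tested did so (58.5% in either direction). The log2 fold change was below 0 in 33 of the 37, where it was in 49.6% of all genes, and 25 had an unadjusted p under 0.05, where 30.5% of all genes did.

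**Figure D1:**
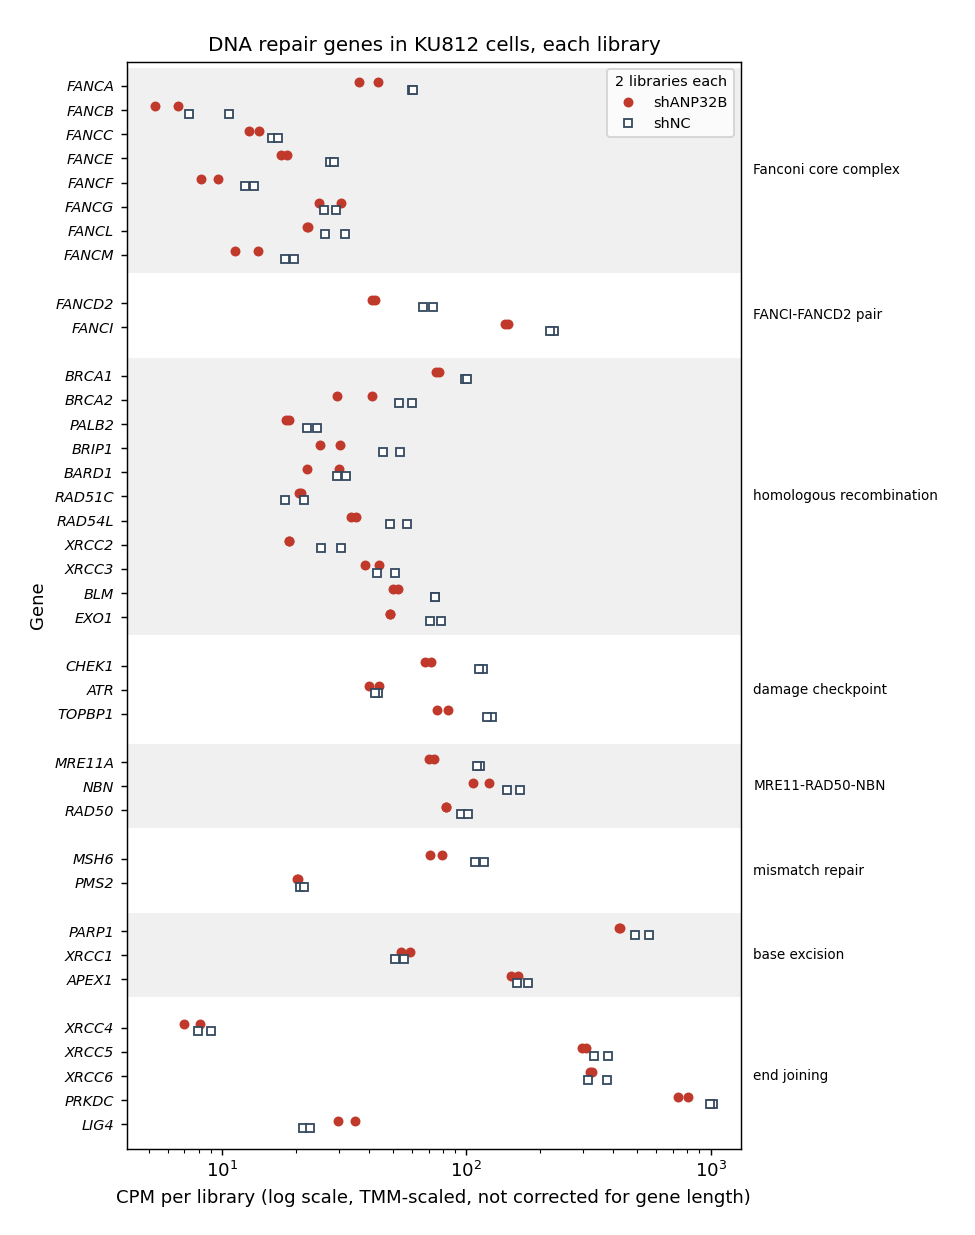
Level of each of the 37 repair genes in the 4 KU812 libraries, in CPM on a log scale, grouped by pathway, with filled circles for shANP32B and open squares for shNC. The shANP32B points of FANCD2, FANCI, CHEK1 and MRE11A lie left of their shNC points, those of FANCG, ATR and RAD51C overlap them, and those of LIG4 lie to the right.

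The FANCI-FANCD2 pair, the substrate of the Fanconi ubiquitin ligase, fell as a whole. FANCD2 was read at 41.1 and 42.4 CPM in shANP32B libraries, against 73.1 and 66.4 CPM in shNC libraries. Its groups were well apart, and its log2 fold change was -0.74 (SE 0.13, adjusted p = 0.00169), which left 59.8% of the shNC level. FANCI stood at 147 and 143 CPM in shANP32B and at 229 and 219.9 CPM in shNC. The libraries of each group lay close together, with a log2 fold change of -0.63 (SE 0.10, adjusted p = 0.00147). The human tables also list the copy FANCD2P1, at 0.733 and 0.363 CPM in shANP32B and 1.04 and 0.895 CPM in shNC.

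Of the 8 core complex genes 3 fell and 5 did not pass. FANCA, a scaffold of the complex, was read at 43.4 and 36.4 CPM in shANP32B libraries and 60.05 and 60.5 CPM in shNC libraries. The shNC libraries were nearly equal and both shANP32B libraries lay below them, at a log2 fold change of -0.59 (SE 0.14, adjusted p = 0.00929). FANCE, which binds FANCD2, stood at 17.3 and 18.5 CPM in shANP32B against 27.5 and 28.7 CPM in shNC, without overlap (-0.65, SE 0.16, adjusted p = 0.0117). FANCM, the translocase that anchors the complex to DNA, was read at 11.3 and 14.00 CPM in shANP32B and 19.6 and 18.1 CPM in shNC, and its adjusted p of 0.0499 lay at the threshold. FANCB, FANCF, FANCL and FANCC had log2 fold changes of -0.60, -0.55, -0.38 and -0.28 that did not pass (adjusted p of 0.147, 0.0951, 0.121 and 0.327), with both shANP32B libraries below both shNC libraries in each. FANCL is the ligase subunit itself, and FANCB its partner on the X chromosome. FANCG, the remaining core gene, was read at 24.9 and 30.6 CPM in shANP32B and 26.2 and 29.3 CPM in shNC, with overlapping groups and a 95% interval of the log2 fold change from -0.34 to 0.34.

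In homologous recombination 7 of 11 genes fell and 0 rose. BRIP1, the helicase that partners BRCA1, had the lowest log2 fold change of the 37 genes. It was read at 25.1 and 30.3 CPM in shANP32B libraries, against 53.3 and 45.6 CPM in shNC libraries. The groups did not overlap, and the log2 fold change was -0.84 (SE 0.15, adjusted p = 0.00226), or 56% of the shNC level. BRCA2, a mediator of strand invasion, stood at 29.6 and 40.9 CPM in shANP32B and 53.04 and 60.1 CPM in shNC (-0.68, SE 0.16, adjusted p = 0.011). Its first shANP32B library was lower than the second, and both lay below the shNC libraries. BRCA1, the ubiquitin ligase that promotes end resection, stood at 77.2 and 74.7 CPM in shANP32B and 99.1 and 101 CPM in shNC (-0.39, SE 0.11, adjusted p = 0.03).

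The other recombination genes that fell were EXO1, RAD54L, BLM and XRCC2. EXO1, the exonuclease of end resection and mismatch repair, was read at 48.7 and 48.7 CPM in shANP32B and 78.6 and 70.9 CPM in shNC (-0.62, SE 0.12, adjusted p = 0.00454). Both shANP32B libraries had almost the same level and lay below both shNC libraries. RAD54L, a motor protein of strand exchange, stood at 35.4 and 33.6 CPM in shANP32B against 57.1 and 48.7 CPM in shNC (-0.62, adjusted p = 0.00847). BLM, the helicase mutated in Bloom syndrome, stood at 50.1 and 52.5 CPM in shANP32B against 74.4 and 74.2 CPM in shNC (-0.53, adjusted p = 0.00918). The shNC libraries of BLM were nearly equal. XRCC2, which acts in strand invasion, was read at 18.7 and 18.8 CPM in shANP32B and 25.3 and 30.7 CPM in shNC (-0.58, adjusted p = 0.0265).

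The other 4 recombination genes did not pass. PALB2, the bridge between BRCA1 and BRCA2, had a log2 fold change of -0.33 with a 95% interval from -0.68 to 0.02, and BARD1, the obligate partner of BRCA1, one of -0.23 with an interval from -0.59 to 0.12. The difference between BRCA1 and BARD1 was not tested. XRCC3 and RAD51C, which form a complex in recombination, stood at -0.19 and 0.07. RAD51C was read at 21.1 and 20.6 CPM in shANP32B and 18.1 and 21.5 CPM in shNC, with overlapping groups and an interval from -0.29 to 0.43.

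Of the checkpoint genes 2 of 3 fell. CHEK1, the kinase that halts the cell cycle at damaged or stalled forks, had the lowest adjusted p of the 37 genes. It stood at 67.4 and 71.6 CPM in shANP32B libraries, against 116 and 113 CPM in shNC libraries. All 4 libraries lay close to their group's mean, and the log2 fold change was -0.72 (SE 0.11, adjusted p = 0.00104), or 60.7% of the shNC level. TOPBP1, the activator of the ATR kinase, was read at 75.8 and 83.8 CPM in shANP32B and 127 and 122 CPM in shNC (-0.64, SE 0.12, adjusted p = 0.00234). ATR itself, the kinase upstream of CHEK1, was read at 39.9 and 43.9 CPM in shANP32B and 43.4 and 42.2 CPM in shNC. Its groups overlapped and its 95% interval ran from -0.32 to 0.25.

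Promoter sequences from RefSeq (GRCm38.p6, 250 bases before to 50 after the start) were matched for 31 of the 37 mouse genes, and human promoters were not used here. They were searched on both strands for letters of 4 elements known from cell cycle and housekeeping promoters. The CCAAT box (CCAAT) was in 20 of 34 promoters of these genes (58.8%), where 37.4% of all promoters hold it, and the GC box (GGGCGG) in 25 (73.5%, against 35.7%). Of the letters that E2F factors are known to bind only TTTGGCGC and TTTCGCGC were searched, and these were in 2 (5.88%, against 0.813%), and the cell cycle homology region (TTTGAA) in 1 (2.94%, against 17.9%). Of the 13 matched genes whose human counterparts fell in KU812 cells 9 held a CCAAT box and 10 a GC box, and of the other 18 genes 10 and 13 did. The promoters of all genes were not matched for base composition, and a match of letters is no evidence of binding.

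The promoters with one of these E2F sequences were those of Topbp1 and Rad51c, whose human counterparts stood at -0.64 and 0.07 in KU812 cells. They are shown with that of Msh6, a gene whose counterpart fell and whose promoter holds a CCAAT box and neither TTTGGCGC nor TTTCGCGC. Other forms of the E2F sequence were not searched. Topbp1 is at chr9:103305077-103305376 on the plus strand, Rad51c at chr11:87404457-87404756 on the minus strand at the start, among those RefSeq lists, that holds the E2F sequence, and Msh6 at chr17:87974800-87975099 on the plus strand. Capitals mark the E2F sequence (GCGCGAAA in Topbp1, TTTCGCGC in Rad51c), GC boxes (GGGCGG or CCGCCC) and the CCAAT box on the opposite strand (ATTGG in Msh6), in the 5′ to 3′ direction of the gene.
Topbp1: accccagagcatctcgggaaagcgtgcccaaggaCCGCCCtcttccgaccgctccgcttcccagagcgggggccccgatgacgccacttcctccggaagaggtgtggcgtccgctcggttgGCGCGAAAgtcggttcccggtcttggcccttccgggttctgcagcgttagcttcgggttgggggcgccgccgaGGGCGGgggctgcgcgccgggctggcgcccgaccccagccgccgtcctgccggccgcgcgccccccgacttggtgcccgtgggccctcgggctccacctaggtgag
Rad51c: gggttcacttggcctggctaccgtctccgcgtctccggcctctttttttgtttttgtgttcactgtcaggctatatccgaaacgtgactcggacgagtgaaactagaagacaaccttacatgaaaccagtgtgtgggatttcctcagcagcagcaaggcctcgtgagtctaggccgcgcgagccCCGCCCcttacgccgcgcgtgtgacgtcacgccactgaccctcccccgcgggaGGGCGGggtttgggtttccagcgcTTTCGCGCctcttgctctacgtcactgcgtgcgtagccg
Msh6: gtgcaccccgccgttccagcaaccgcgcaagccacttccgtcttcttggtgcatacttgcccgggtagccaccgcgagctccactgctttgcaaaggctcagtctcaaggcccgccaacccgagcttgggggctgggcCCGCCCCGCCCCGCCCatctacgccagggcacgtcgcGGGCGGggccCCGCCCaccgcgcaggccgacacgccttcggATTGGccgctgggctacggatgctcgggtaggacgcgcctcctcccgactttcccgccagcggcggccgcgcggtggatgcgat

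The MRE11-RAD50-NBN complex senses double-strand breaks and starts their resection, and 2 of its 3 genes fell. MRE11A, the nuclease, was read at 73.6 and 70.4 CPM in shANP32B against 114 and 110.2 CPM in shNC (-0.64, SE 0.11, adjusted p = 0.00221). NBN, the subunit that recruits the ATM kinase, stood at 106 and 123 CPM in shANP32B and 147 and 166 CPM in shNC (-0.44, SE 0.12, adjusted p = 0.0222). RAD50, the subunit that tethers ends, was read at 82.6 and 82.8 CPM in shANP32B and 94.95 and 101 CPM in shNC. Its groups did not overlap, but its log2 fold change of -0.25 did not pass (adjusted p = 0.163).

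Of the 2 mismatch repair genes 1 fell and 1 did not pass, and the difference between them was not tested. MSH6, a subunit of mismatch recognition, was read at 71.1 and 79.2 CPM in shANP32B libraries and 118 and 108 CPM in shNC libraries, without overlap (-0.59, SE 0.12, adjusted p = 0.00445). PMS2, the endonuclease that acts after recognition, stood at 20.2 and 20.4 CPM in shANP32B and 20.8 and 21.6 CPM in shNC (-0.06, 95% interval -0.40 to 0.28). PMS2 has many near-identical copies, of which 10 were listed with a summed level of 40.2 and 42.1 CPM in shANP32B and 41.3 and 38.6 CPM in shNC, above that of PMS2, so the assignment of its reads is uncertain.

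None of the 3 genes of base excision and single-strand break repair passed in edgeR, and 1, PARP1, had an unadjusted p under 0.05. PARP1, which senses strand breaks by making poly(ADP-ribose), was read at 427 and 421 CPM in shANP32B and 492 and 558 CPM in shNC, without overlap, and missed the threshold (-0.31, SE 0.10, adjusted p = 0.051). It passed with DESeq2 (adjusted p = 0.0336) and limma-voom (adjusted p = 0.0348). XRCC1, the scaffold of single-strand break repair, and APEX1, the endonuclease at abasic sites, had overlapping groups, with 95% intervals from -0.20 to 0.35 and from -0.34 to 0.13.

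End joining held the only rise among the 37 genes. LIG4 was read at 29.8 and 34.9 CPM in shANP32B libraries, against 21.5 and 22.8 CPM in shNC libraries. Both shANP32B libraries lay above both shNC libraries, and the log2 fold change was 0.55 (SE 0.15, adjusted p = 0.0261), or 146% of the shNC level. XRCC4, the partner that stabilises the LIG4 protein, stood at 6.98 and 8.11 CPM in shANP32B and 7.98 and 8.95 CPM in shNC and did not pass (-0.17, 95% interval -0.67 to 0.34). PRKDC, the catalytic subunit of the DNA-dependent kinase, fell, with 735 and 807 CPM in shANP32B against 1024 and 996 CPM in shNC (-0.39, SE 0.09, adjusted p = 0.0116). The Ku subunits XRCC5 and XRCC6, which bring that kinase to broken ends, had log2 fold changes of -0.23 and -0.09 that did not pass (adjusted p of 0.15 and 0.622).

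**Figure D2:**
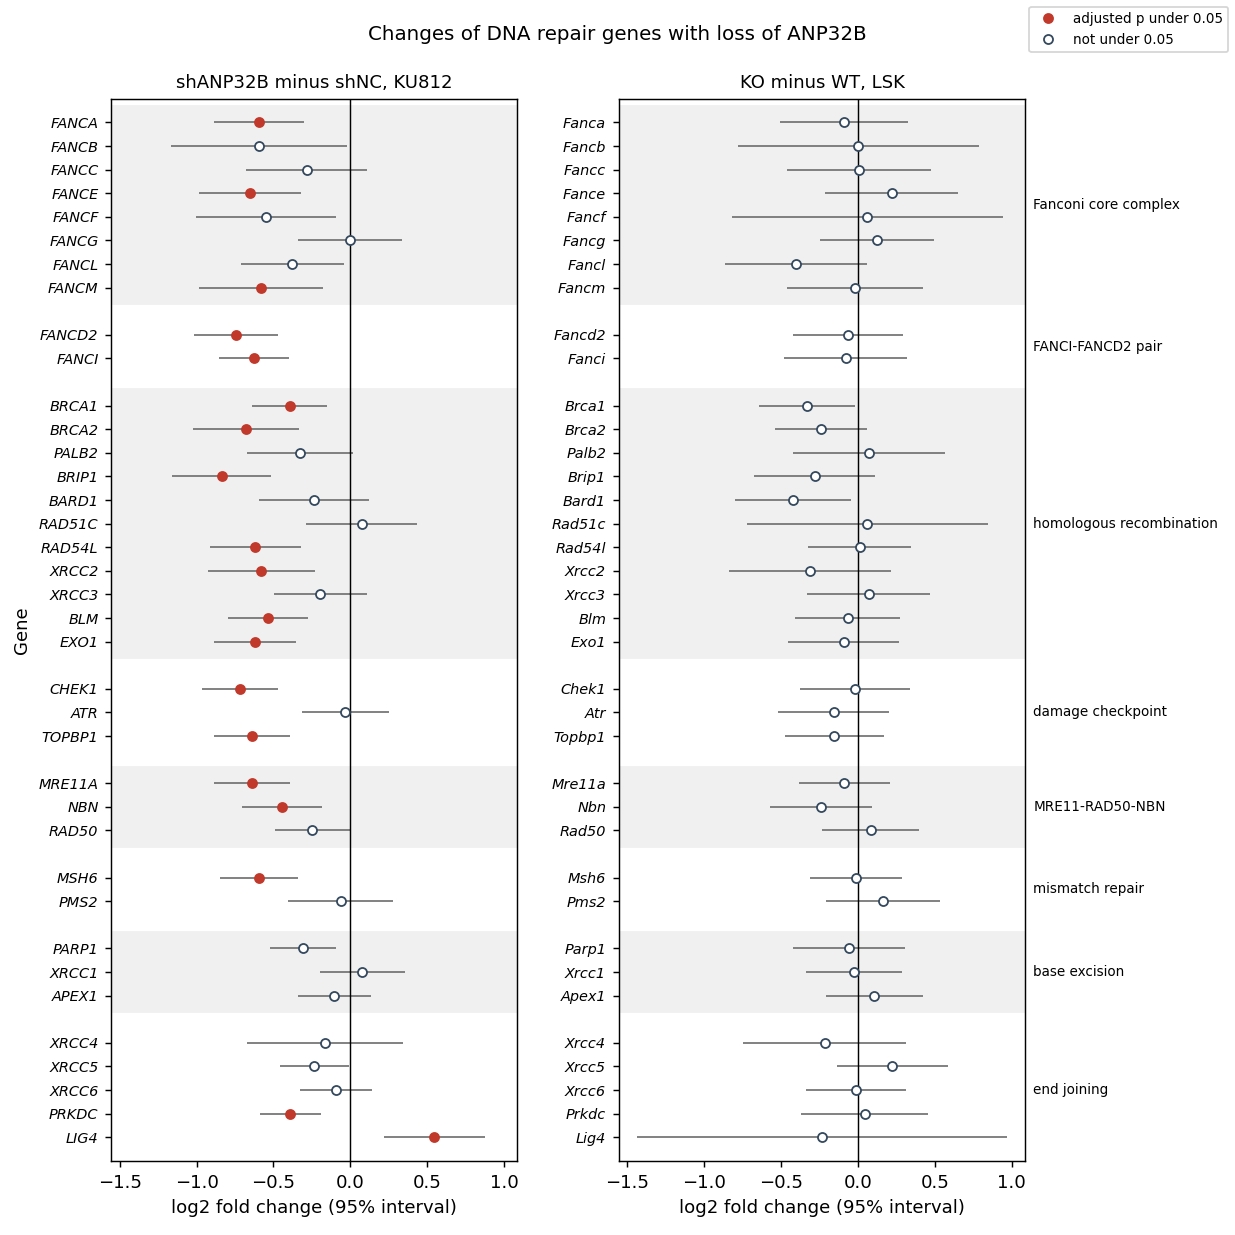
Log2 fold change of each gene with its 95% interval, shANP32B minus shNC in KU812 cells on the left and KO minus WT in LSK cells on the right, grouped by pathway, with filled points for an adjusted p under 0.05. On the left 18 filled points lie below 0 and 1, LIG4, above it, and on the right no point is filled.

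Every one of the 19 calls rests on 2 libraries a group, and the number of calls depended on the shANP32B libraries. Without the first shANP32B library 10 of the 19 genes kept their call, and without the second 11 did. The 7 genes that kept it whichever library was left out were FANCD2, FANCI, BRIP1, EXO1, CHEK1, TOPBP1 and MRE11A. LIG4 lost its call without the second shANP32B library (log2 fold change 0.41, adjusted p = 0.326), and FANCM lost it without either shANP32B library or the first shNC library. Direction was kept by all 19 genes under each of the 10 alternatives. Calls over all genes in the fits without a library are not given here. Losses among the 19 are therefore not set against losses over all genes. Scaled by library totals, 16 of the 37 genes fell and 1 rose, while over all genes 1182 fell and 1474 rose in place of 1497 and 1244.

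**Figure D3:**
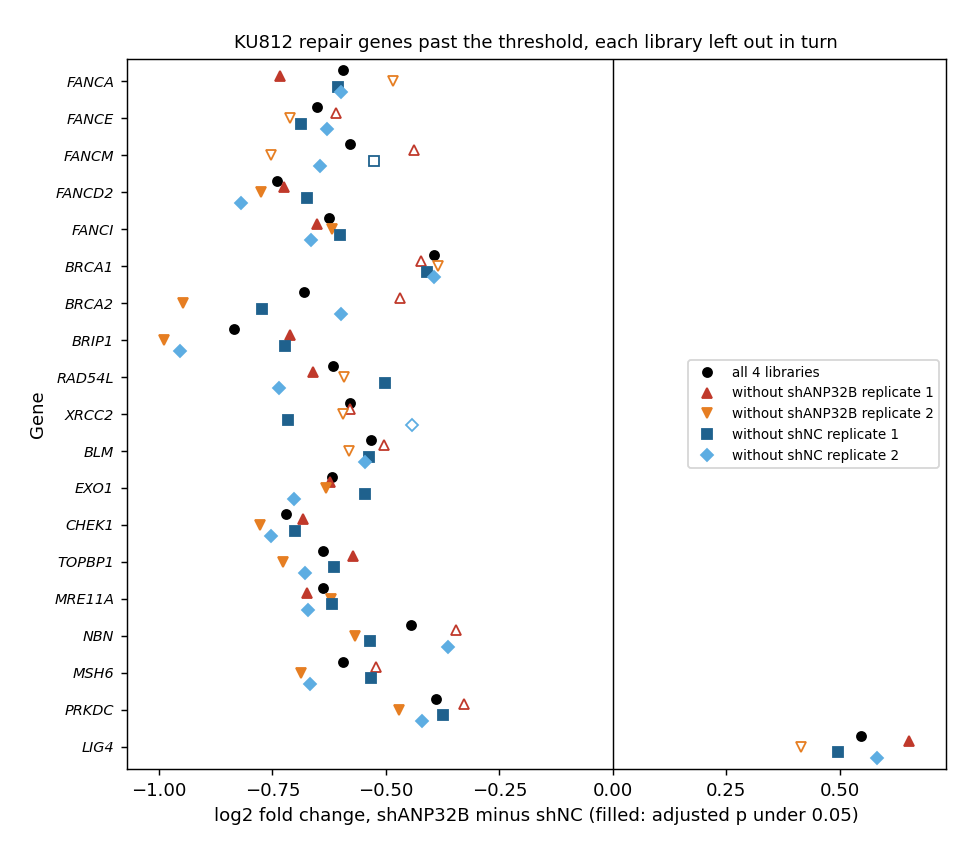
Log2 fold change, shANP32B minus shNC, of the 19 KU812 genes past the threshold, with all 4 libraries (black circles) and with 1 library left out (other symbols), filled where the adjusted p is under 0.05. The 18 lower genes stay left of 0 in each fit, and most open symbols belong to the fits without a shANP32B library.

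Repair genes outside the 37 were taken from a list of 126, of which 123 were tested in KU812 cells. Of these 20 fell and 2 rose, or 16.3% lower, where 9.06% of all genes were called lower, with a median log2 fold change of -0.14. The list's recombination group, which also holds POLQ, had 9 of the 20 falls, among 30 genes. Among the other falls were 3 of 17 checkpoint genes, 3 of 21 base excision genes, 2 of 22 nucleotide excision genes, 1 of 14 Fanconi genes and 1 of 8 genes of direct reversal and translesion synthesis, and in its end joining group 0 of 6 genes passed in edgeR (1 had an unadjusted p under 0.05). POLQ, the polymerase of theta-mediated end joining, a route that the list's end joining group does not cover, was read at 25.6 and 23.4 CPM in shANP32B and 46.2 and 45.4 CPM in shNC (-0.90, SE 0.14, adjusted p = 0.000803). FIGNL1, an ATPase of recombination, and RMI2, a subunit of the BLM complex, had log2 fold changes of -0.92 (adjusted p = 0.00209) and -0.94 (adjusted p = 0.0119). DDB1 of the damage-binding complex (-0.47), the glycosylase MBD4 (-0.57) and LIG1, the ligase of replication and long-patch repair (-0.48), were also among the 8 with the smallest p. The 2 that rose, named after their values were seen, were CETN2, a centrin that binds the XPC complex (0.86, adjusted p = 0.0161), and FAAP20, a subunit of the Fanconi core (0.46, adjusted p = 0.0363). With the replicate number as a block 36 of the 123 genes passed, and fewer passed when either shANP32B library was left out. Calls over all genes in these fits are not given here, so these shifts are not set against those of all genes.

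Listed genes of S phase and mitosis were lower as well. Of 15 proliferation genes, the MCM helicase genes, PCNA and MKI67 among them, 11 fell and 0 rose in KU812 cells. That is 73.3% lower, where 9.06% of all genes tested were called lower and 7.53% higher. Their median log2 fold change was -0.45. Their summed level was 2769.8 and 2945 CPM in shANP32B libraries, against 3693 and 3975 CPM in shNC libraries, and none of the 15 was at 0 in any library. Levels of 4 listed erythroid genes summed to 451 and 437 CPM in shANP32B and 574 and 642 CPM in shNC, and those of 7 listed neutrophil and monocyte genes to 23.5 and 20.9 CPM in shANP32B and 9.41 and 8.99 CPM in shNC. The part of proliferation or of these lineages in the fall of the repair genes was not tested.

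The LSK comparison asks the same of mouse LSK cells labelled Anp32b-KO. By edgeR's test, adjusted over 14598 genes, none of the 37 passed the same threshold, where 0% of all genes did. DESeq2 and limma-voom called 0 of the 37 as well. In simulated data with few changed genes the LSK fit called 2.94% of genes given a 1.5-fold change, and the KU812 fit 32.4%. The absence of calls in LSK cells is therefore no evidence that changes of that size are absent. The median log2 fold change was -0.026 over the 37 genes and -0.0079 over all genes tested, and the values ran from -0.42 to 0.22. At an unadjusted p under 0.05 there were 2 genes, both lower, where 2.21% of all genes were lower and 2.29% higher (4.5% in either direction). Both KO libraries lay below both WT libraries in 10 of the 37 genes and above them in 2, where 15.6% and 17.7% of all genes did so (33.2% in either direction).

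**Figure D4:**
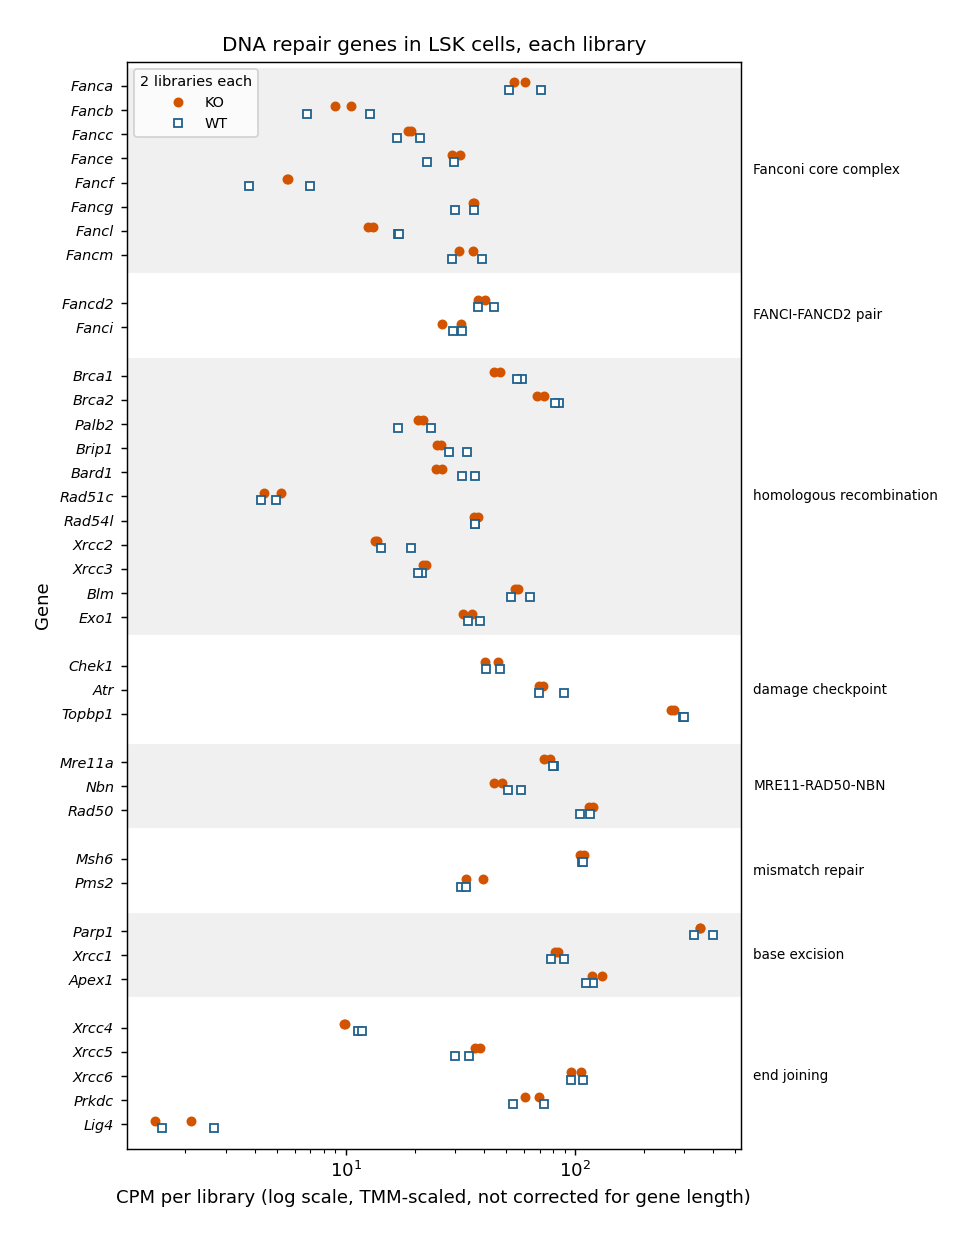
Level of each of the 37 repair genes in the 4 LSK libraries, in CPM on a log scale, grouped by pathway, with filled circles for KO and open squares for WT. The groups overlap in 25 of the 37 genes, and the WT points of Fanca, Fancb and Prkdc lie on either side of their KO points.

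The genes with the smallest p were the heterodimer Brca1 and Bard1. Bard1 was read at 24.6 and 26.4 CPM in KO libraries and 32.1 and 36.5 CPM in WT libraries, and Brca1 at 47.1 and 44.2 CPM in KO and 58.8 and 55.9 CPM in WT. In both genes the KO libraries lay below the WT libraries, with log2 fold changes of -0.42 (SE 0.16, unadjusted p = 0.0325, adjusted p = 0.986) and -0.33 (SE 0.13, unadjusted p = 0.0402, adjusted p = 0.986). Neither passed. Of the genes that work with them, Brca2 was read at 73.4 and 68.6 CPM in KO and 85.4 and 82.1 CPM in WT (-0.24, 95% interval -0.54 to 0.06), Brip1 at 25.9 and 24.9 CPM in KO and 28.3 and 33.7 CPM in WT (-0.28, 95% interval -0.68 to 0.11), and Palb2 had a log2 fold change of 0.07.

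In the Fanconi core the ligase gene Fancl was read at 13.2 and 12.5 CPM in KO libraries, against 16.9 and 17.1 CPM in WT libraries, and the other 7 genes had overlapping groups. Its log2 fold change of -0.40 did not pass (SE 0.20, unadjusted p = 0.0769). Fancd2 stood at 37.7 and 40.5 CPM in KO and 37.7 and 44.3 CPM in WT, and Fanci at 31.8 and 26.3 CPM in KO and 29.4 and 32.2 CPM in WT. Both pairs of groups overlapped, with 95% intervals from -0.42 to 0.29 and from -0.48 to 0.32. Chek1 was read at 40.3 and 46.1 CPM in KO and 40.7 and 47.04 CPM in WT (95% interval -0.38 to 0.34). Topbp1 was read at 271 and 263 CPM in KO and 294 and 299 CPM in WT, without overlap (-0.15, SE 0.14).

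The groups overlapped in all 5 genes of mismatch and base excision repair. Msh6 was read at 105 and 109 CPM in KO libraries and 107 and 109 CPM in WT libraries, and Parp1 at 352 and 350.0 CPM in KO and 400.0 and 331 CPM in WT. The Parp1 values of the WT libraries lay on either side of the KO libraries. The 95% interval of the log2 fold change ran from -0.31 to 0.29 for Msh6, from -0.21 to 0.53 for Pms2, from -0.42 to 0.31 for Parp1, from -0.34 to 0.28 for Xrcc1 and from -0.21 to 0.42 for Apex1. Pms2 was read at 39.7 and 33.5 CPM in KO and 31.8 and 33.6 CPM in WT, with the first KO library above the other 3. Among end joining genes Xrcc5 was higher in both KO libraries, at 36.4 and 38.5 CPM against 29.95 and 34.4 CPM in WT, and did not pass (0.22, SE 0.15). Lig4 was the least abundant of the 37 in CPM, at 2.11 and 1.47 CPM in KO and 1.57 and 2.67 CPM in WT, so its interval was wide, from -1.44 to 0.97.

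For several genes the WT libraries spanned the KO values. Fanca stood at 51.4 CPM in the first WT library and 71.4 CPM in the second, and Prkdc at 53.5 and 73.4 CPM, on either side of the KO libraries at 60.6 and 54.4 CPM and 69.7 and 60.7 CPM. Without the first WT library the median log2 fold change of the 37 genes was -0.15, and without the second it was 0.050, so its sign depended on which WT library was used. No gene of the 37 passed in either case. Scaled by library totals the median was 0.020. Of the 15 proliferation genes 0 passed in edgeR, where 0% of all genes did. An unadjusted p under 0.05 was found for 3 of the 15, where 4.5% of all genes tested had one. The median log2 fold change of the 15 was -0.15. Their summed level was 3813 and 3937 CPM in KO and 4673 and 4138 CPM in WT. Some of the 12 listed markers of neutrophils and monocytes are also expressed by progenitors, and none was at 0. The 12 summed to 4903 and 6226 CPM in KO and 8692 and 6849 CPM in WT. Mpo alone stood at 3102 and 4129 CPM in KO and 6037 and 4492 CPM in WT. Listed B and plasma cell genes summed to 418 and 463 CPM in KO and 814 and 292 CPM in WT. T and NK cell genes summed to 123 and 152 CPM in KO and 172 and 118 CPM in WT. Erythroid genes summed to 475 and 630 CPM in KO and 401 and 570 CPM in WT. Stromal and endothelial genes summed to 151 and 134 CPM in KO and 205 and 172 CPM in WT. The part of these cells in the LSK values was not tested. The strand setting of the counting is not known here. Reads of 12 of the 37 mouse genes could therefore include those of a listed gene that overlaps them on the opposite strand in GRCm38. Examples are Polg over Fanci and Fbxo11 over Msh6. On the same strand, where no strand setting separates reads, the listed genes Rsph10b, Gm16907 and Mir6904 overlap Pms2, Fancc and Parp1 in that order.

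Of the 122 other repair genes tested in LSK cells 0 passed by edgeR, DESeq2 or limma-voom. An unadjusted p under 0.05 in edgeR was found for 3, where 4.5% of all genes tested had one. The 4 with the smallest p, none past the threshold, were the recombination gene Rad51d (0.37), the transcription factor H subunit gene Gtf2h3 (0.39), the uracil glycosylase gene Ung (0.44) and Eme1, which encodes a subunit of the MUS81 nuclease (-0.50). Without the second WT library 2 of the 122 passed. In KU812 cells UNG, named here after its values were seen, fell with a log2 fold change of -0.54 (adjusted p = 0.015).

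Whether the change of a gene differed between the experiments was tested as an interaction over all 8 libraries. It covered 10771 genes with the same symbol in both species. The experiments differ in species, cell type, depth and hairpin against knockout, and these cannot be told apart in the interaction. The model shares its estimate of spread over both experiments, although the WT libraries differed from each other more than other replicates did. Positive values mean that the log2 fold change was higher in LSK cells (KO minus WT) than in KU812 cells (shANP32B minus shNC). Of the 37 genes 0 passed, where 2.22% of all genes did, by edgeR, and DESeq2 and limma-voom also called 0. At an unadjusted p under 0.05 there were 12, all with the higher value in LSK cells, where 9.66% of all genes lay in that direction (17.9% in either). The median difference was 0.38 over the 37 genes and 9.7e-04 over all genes tested. CHEK1 had the lowest adjusted p, with a difference of 0.68 (95% interval 0.27 to 1.09, adjusted p = 0.0826), followed by FANCE at 0.85 (0.32 to 1.38, adjusted p = 0.094) and FANCD2 at 0.66 (0.22 to 1.09, adjusted p = 0.11). For BRCA1 the difference was 0.05 (-0.31 to 0.41), with log2 fold changes of -0.33 in LSK and -0.39 in KU812 cells. A fall in KU812 cells that passed and an LSK value that did not are therefore not shown to differ for any of the 37 genes. Without the second WT library 4 passed, namely CHEK1, FANCD2, FANCE and PRKDC. Across the 37 genes the log2 fold changes of the 2 experiments had a Spearman correlation of 0.237, given as a description over genes that share libraries.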

How the data were processed

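RNA sequencing libraries of KU812 cells (2 shANP32B, 2 shNC) and LSK cells (2 KO, 2 WT) were analysed. The authors deposited whole-number counts per gene symbol, 1 table per library, without normalization. Builds GRCm38 and GRCh38 and the tools DESeq, Cufflinks, TopHat and HISAT2 are listed, with neither role nor version, per the submitters' processing notes. How reads were counted, with which annotation and strand setting, is not stated. No listed gene has a sum under 10 counts across an experiment's 4 libraries. The limit that a count of 0 allows (3 counts) is 0.107 to 0.122 CPM for KU812 and 0.197 to 0.286 CPM for LSK, for counting error only.

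The experiments were tested separately using edgeR 4.0.16 (R 4.3.3, filterByExpr, TMM scaling, quasi-likelihood test, Benjamini-Hochberg adjustment over all genes tested, threshold 0.05). CPM uses TMM-scaled library sizes and is not corrected for length. Log2 fold changes are moderated by edgeR's default prior count. The SE is the unmoderated coefficient divided by the square root of F, and 95% intervals lie around that coefficient. The interaction was fitted in 1 model over 8 libraries. Alternatives were DESeq2 1.42.0, limma-voom 3.58.1 with quality weights, other scaling, no filter, a replicate block and each library left out. The fits were tested on simulated data. In the KU812 simulation 74 of 16119 genes were given a 1.5-fold change, 67 a 2-fold and 59 a 4-fold change. The KU812 data had 2741 genes past the threshold, so the simulated shares are only a rough guide to these data. Unchanged genes called were 12 in the LSK simulation, 1 in KU812 and 5 in the interaction. Of genes given a 1.5-fold change, 2.94% were called in LSK, 32.4% in KU812 and 2.99% in the interaction. For a 2-fold change these shares were 39.3%, 50.7% and 43.9%. Mouse positions are from GENCODE on GRCm38. The genes, pathway groups and lists were chosen with earlier results of these data known. All 37 genes are named, and of other repair genes up to 8 past the threshold with the smallest p, or 4 where none passed. Some of these are not reported here.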

Additional observations from a re-analysis of the deposited data

How the results depend on the processing

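The counts for the 37 genes in KU812 cells ran from 10 to 20 when 1 library was left out, against 19 with all libraries, and the other repair genes from 4 to 31, against 22. The median log2 fold change of the 37 genes in KU812 cells ran from -0.46 to -0.39 without 1 library and was -0.34 when scaled by library totals, against -0.39 as reported. In LSK cells the other repair genes past the threshold ran from 0 to 2 without 1 library, and the genes whose change differed between experiments from 0 to 4. The replicate numbers share no stated origin. Same-numbered libraries had a correlation of deviations of 0.172 in KU812 and -0.0779 in LSK cells, and with the replicate number as a block 21 of the 37 genes passed in KU812 cells, 0 in LSK cells and 0 in the interaction, and 36 other repair genes in KU812 cells, against 22. The cause of these shifts was not tested, except that fits without a library have fewer samples. Calls over all genes in the block fit and in fits without a library are not given here. A shift of the repair genes therefore cannot be told from a shift of all genes, also in LSK cells and in the interaction. Single calls in KU812 cells were lost 4 times and gained 3 times under the other settings, lost 19 times and gained 4 times with 1 library left out, and gained 2 times with the block, and none changed direction. In LSK cells no call of the 37 genes was made under any of these settings. The depth limits genes such as Lig4, with few counts in LSK libraries.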
